A study of Mus musculus with 8 samples.

Results

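Cytochrome c oxidase is built partly from nuclear subunits that exist as pairs of a ubiquitous and a tissue-restricted isoform, and 5 such pairs are described here in mouse hippocampus: Cox4i1 and Cox4i2, Cox6a1 and Cox6a2, Cox6b1 and Cox6b2, Cox7a2 and Cox7a1, and Cox8a and Cox8b. The 10 genes were selected by symbol, and 9 of them, out of 55188 genes in all, had rows in the tables; Cox4i1 was not analysed here, so Cox4i2 is given without its partner. The set was assembled with the low Cox8b level in the knockout libraries already known, so every KO against WT value of a member is a description and carries no test.

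The samples were hippocampus of C57BL/6 mice before fear conditioning, in a study of the part of Pyk2 in fear memory. Libraries labelled KO came from mice labelled as knockouts of Pyk2, the product of Ptk2b and a relative of focal adhesion kinase, and libraries labelled WT from wild-type mice. Each group held 2 numbered animals with 2 technical replicate libraries each (KO1, KO2, WT1, WT2). The labels call the mice of both groups transgenic and give no allele, age or Cre driver, nor do they say whether the numbers mark different mice, so the spread between numbered animals may be technical. Ptk2b itself averaged 273 ± 6.33 FPKM in the KO animals and 217 ± 21.0 FPKM in the WT animals (SD, n = 2 each), so RNA of the targeted gene was higher, not lower, where the label is KO, and every direction below is that of the libraries as labelled. FPKM is the number of fragments divided by transcript length and library size. Per library, 26482 to 27871 genes were above 0, and the confidence limits imply 11330000 to 14140000 fragments in all.

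Cytochrome c oxidase is the terminal enzyme of the mitochondrial respiratory chain, where it passes electrons from cytochrome c to oxygen and pumps protons. Its catalytic core is encoded in mitochondrial DNA, and the nuclear subunits surround that core and tune its activity and stability. Cox8b, Cox7a1 and Cox6a2 are known as the heart and skeletal muscle isoforms, Cox6b2 as the testis isoform and Cox4i2 as an isoform of lung that responds to oxygen. Cox8b and Cox7a1 are also widely used as markers of brown fat.

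The genes lie apart from each other, although 5 of the 9 (Cox6b2, Cox7a1, Cox6b1, Cox6a2 and Cox8b) are on chromosome 7. Cox8b (ENSMUSG00000025488) spans chromosome 7, 140898945 to 140900446 in mm10, on the minus strand, and its longest coding transcript in GENCODE M21 has 360 bases in 2 exons. Its partner Cox8a (ENSMUSG00000035885) spans chromosome 19, 7215153 to 7217616, with 550 bases in 2 exons. Cox6b2 (ENSMUSG00000051811) spans chromosome 7, 4751792 to 4753094, and Cox7a1 (ENSMUSG00000074218) spans chromosome 7, 30184144 to 30186078. Of the 9 genes, Cox6a2 alone overlapped another annotated gene, the integrin gene Itgad on the opposite strand, which stood at 0.129 to 0.234 FPKM in KO animals and 0.404 to 0.429 FPKM in WT animals. A transcript of another gene at least 90% identical over at least 80% of the length was found for Cox6a1 alone, the pseudogene Gm50432, with means of 1.72 FPKM in KO animals and 1.32 FPKM in WT animals.

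Promoters were compared because the isoforms of a pair sit at very different levels. In addition, Cox8b, Cox6b2 and Cox7a1 had both KO animals below both WT animals, as had 30.7% of all genes tested. Promoter windows of 300 bases (250 before to 50 after the annotated start, RefSeq, GRCm38.p6) were found for 7 of the 9 genes; Cox4i2 and Cox6a2 are named only. The windows of Cox8b, Cox6b2, Cox7a1 and Cox8a are given 5′ to 3′, with each CG dinucleotide in capitals.
Cox8b promoter, chr7:140900397-140900696, minus strand: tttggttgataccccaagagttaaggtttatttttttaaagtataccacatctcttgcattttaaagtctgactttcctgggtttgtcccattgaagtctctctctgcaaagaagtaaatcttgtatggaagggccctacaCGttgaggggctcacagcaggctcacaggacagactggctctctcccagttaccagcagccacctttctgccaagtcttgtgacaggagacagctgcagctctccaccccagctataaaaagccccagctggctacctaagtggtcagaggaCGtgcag
Cox8a promoter, chr19:7217567-7217866, minus strand: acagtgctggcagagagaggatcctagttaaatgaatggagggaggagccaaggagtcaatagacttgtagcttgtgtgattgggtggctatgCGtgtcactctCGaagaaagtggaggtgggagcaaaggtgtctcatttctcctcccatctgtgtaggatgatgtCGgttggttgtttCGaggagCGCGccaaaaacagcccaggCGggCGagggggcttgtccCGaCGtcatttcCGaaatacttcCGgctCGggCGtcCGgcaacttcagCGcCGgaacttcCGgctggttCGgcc
Cox6b2 promoter, chr7:4753045-4753344, minus strand: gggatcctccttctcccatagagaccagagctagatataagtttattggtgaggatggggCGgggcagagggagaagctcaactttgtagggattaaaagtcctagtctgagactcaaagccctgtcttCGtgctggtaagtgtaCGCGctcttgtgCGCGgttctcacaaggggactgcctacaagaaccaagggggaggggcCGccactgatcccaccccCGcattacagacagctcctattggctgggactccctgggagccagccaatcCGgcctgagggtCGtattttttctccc
Cox7a1 promoter, chr7:30183921-30184220, plus strand: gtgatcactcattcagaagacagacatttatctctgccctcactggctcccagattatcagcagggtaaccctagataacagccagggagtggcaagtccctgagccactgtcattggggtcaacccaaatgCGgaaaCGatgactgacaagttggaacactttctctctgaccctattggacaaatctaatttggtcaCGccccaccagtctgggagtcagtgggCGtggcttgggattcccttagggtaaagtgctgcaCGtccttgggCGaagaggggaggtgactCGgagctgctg

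Tissue-restricted members had fewer CG dinucleotides than ubiquitous members in these windows. Cox8b held 2, Cox7a1 7 and Cox6b2 10, against 17 in Cox6b1, 19 in Cox8a, 20 in Cox7a2 and 32 in Cox6a1. Over 32851 promoter windows the median was 7, and 14.1% had fewer than Cox8b. The sequence TATAAA, the letters of a TATA box, was present in the Cox8b window only among the 7 and occurs in 13.6% of all windows. It lies just past the annotated start, so only the letters are reported. The ETS motif CCGGAAG, bound by GABP (also called NRF-2), was found in Cox8a, Cox6a1 and Cox6b1 and in 8.86% of all windows. The palindromic motif of the nuclear respiratory factor NRF1 was found in Cox6a1 alone and in 4.60% of all windows. Other sequences were too common to separate the isoforms: CCAAT was in 5 of the 7 windows and 37.4% of all, and the E-box CANNTG was also in 5 of the 7 and 72.3% of all. GGGCGG, the Sp1 GC box, was in Cox6a1, Cox6b2 and Cox7a2 and in 35.7% of all windows, and the MEF2 motif was in none of the 7 and in 3.69% of all. Both strands were searched, and a match describes letters in the window, not binding.

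Cox8b encodes the smallest subunit of the enzyme, a short membrane-spanning protein, in its heart and muscle form. It stood at 1.22 and 1.54 FPKM in the libraries of KO1 and at 1.89 and 2.10 FPKM in those of KO2, against 12.4 and 16.5 FPKM in WT1 and 19.3 and 15.7 FPKM in WT2. All 4 KO libraries lay far below all 4 WT libraries, with a gap larger than any difference between technical replicates. The animals averaged 1.69 ± 0.433 FPKM in the KO group and 16.0 ± 2.14 FPKM in the WT group (SD, n = 2 each), so the KO level was 0.106 of the WT level. As log2(FPKM + 1), the difference was -2.66, and limma gave it a standard error (SE) of 0.14. The deposited confidence limits imply about 12 to 19 fragments per library in the KO group and 122 to 169 in the WT group, and their ranges do not meet: the highest upper limit in a KO library was 3.07 FPKM and the lowest lower limit in a WT library 10.2 FPKM.

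Cox8b was the single member past an adjusted p of 0.05 in the limma fit over 16667 genes, where 0.0540% of genes (9) were called, 9 lower and 0 higher in the KO animals. As that call led to the choice of these genes, nothing is read from it. Without WT1 or without WT2 the gene was not past the threshold, with log2 differences of -2.79 and -2.53, and the same held for the first technical replicates alone, at -2.70. Among the fits that kept 2 animals in each group, Cox6b2 was called as well in those where more genes were called. These were the second technical replicates alone (35 of 16642 genes called) and the fit without the first library of KO1 (20 of 16679). The third was the animal number as a block (184 of 16667). Nothing is read from these calls either. In a bulk tissue, fewer cells of a type and less RNA per cell cannot be told apart, which applies to this and every difference below.

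The ubiquitous partner Cox8a was the most abundant of the 9 members and hardly differed between the groups. It read 641, 628, 604 and 626 FPKM in the KO libraries, against 587, 607, 590.3 and 601 FPKM in the WT libraries. The ranges of libraries overlapped, while both KO animals were above both WT animals, at 625 ± 13.6 and 597 ± 0.858 FPKM (SD, n = 2 each). The log2 difference was 0.07 (SE 0.04).

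**Figure D1:**
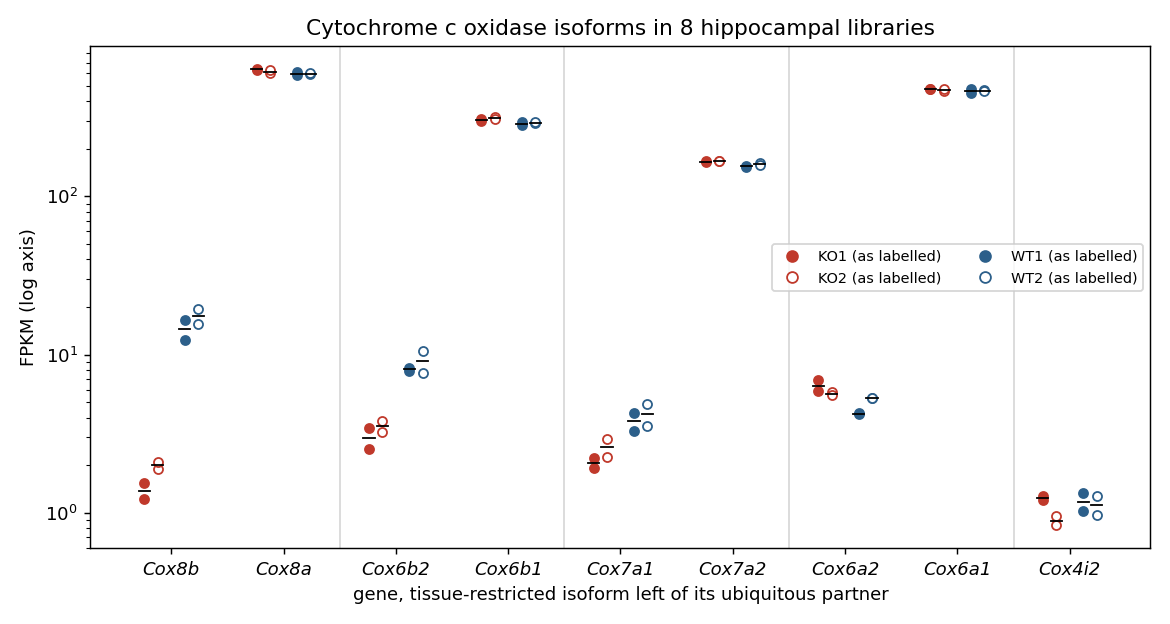
FPKM (log axis) of the 9 measured genes in the 8 libraries, with filled and open circles for the animals numbered 1 and 2 of each group and a black line at each animal's mean. Every ubiquitous isoform is at 153 FPKM or more in every library and every tissue-restricted isoform at 19.3 FPKM or less; Cox8b, Cox6b2 and Cox7a1 are lower in all 4 KO libraries than in all 4 WT libraries.

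Cox6b2 encodes the testis form of the subunit that lies on the intermembrane side between the monomers of the enzyme. It stood at 2.52, 3.46, 3.23 and 3.80 FPKM in the KO libraries, against 7.90, 8.21, 10.6 and 7.61 FPKM in the WT libraries. Again the groups did not overlap in any library. The gap between the groups was wider than the range within either one. The animals averaged 3.25 ± 0.372 FPKM (KO) and 8.58 ± 0.743 FPKM (WT), a log2 difference of -1.17 (SE 0.10), from about 31 to 42 implied fragments per KO library and 91 to 128 per WT library. Between technical replicate sets the log2 difference was -1.40 with the first and -0.95 with the second libraries alone.

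Its partner Cox6b1, the general form of that subunit, was higher in the KO libraries by a small margin. The values were 302, 306, 317 and 310.0 FPKM in the KO libraries and 283, 293, 289.7 and 294 FPKM in the WT libraries. These values did not overlap, although deposited confidence ranges met between the groups. The animals averaged 309 ± 6.76 FPKM (KO) and 290.0 ± 2.62 FPKM (WT), a log2 difference of 0.09 (SE 0.04).

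Cox7a1, the muscle form of a subunit at the dimer interface, was the third member with both KO animals below both WT animals. Of all genes tested, 30.7% had this. It read 1.93, 2.23, 2.93 and 2.26 FPKM in the KO libraries, against 4.30, 3.31, 3.53 and 4.90 FPKM in the WT libraries. The highest KO library was below the lowest WT library, but several of the deposited confidence ranges met, as the values rest on about 18 to 50 implied fragments. The animals averaged 2.34 ± 0.366 FPKM (KO) and 4.01 ± 0.289 FPKM (WT), a log2 difference of -0.59 (SE 0.10). Cox7a2, its ubiquitous partner, averaged 166 ± 0.548 FPKM (KO) and 158 ± 4.59 FPKM (WT), a log2 difference of 0.08 (SE 0.04). Its 4 KO libraries at 165 to 167 FPKM were all above its 4 WT libraries at 153 to 164 FPKM, although deposited confidence ranges met between the groups.

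Cox6a2, the muscle form of a subunit that takes part in regulation by adenine nucleotides, went the other way and was higher in the KO animals. It stood at 6.90, 5.86, 5.80 and 5.52 FPKM in the KO libraries, against 4.28, 4.19, 5.30 and 5.35 FPKM in the WT libraries. The groups did not overlap, although KO2 and WT2 were close, at 5.66 and 5.33 FPKM, and deposited confidence ranges of their libraries met. The animals averaged 6.02 ± 0.509 FPKM (KO) and 4.78 ± 0.774 FPKM (WT), a log2 difference of 0.28 (SE 0.11). Parvalbumin interneurons are a known site of Cox6a2 expression in mouse brain, and Pvalb, their calcium-binding protein, was at 29.5 and 23.0 FPKM in KO1 and KO2 and at 22.1 and 21.4 FPKM in WT1 and WT2 (log2 difference 0.25, SE 0.12, limma adjusted p = 0.392). The 8 genes listed for these interneurons include Gad1 and Gad2, which are not restricted to them. Of the 8, 4 had a higher and 4 a lower mean in the KO animals. Tac1 was lower, at 4.92 and 5.72 FPKM in KO1 and KO2 and 6.21 and 6.97 FPKM in WT1 and WT2. Their summed level overlapped between groups, at 203 to 209 FPKM in KO animals and 199 to 211 FPKM in WT animals. Gad1 was the largest part of it, at 95.7 and 97.7 FPKM in KO1 and KO2 and 103 and 95.1 FPKM in WT1 and WT2. The part of parvalbumin interneurons in the Cox6a2 level was not tested. Cox6a1, the general form, was at 473 ± 5.60 FPKM (KO) and 464 ± 1.61 FPKM (WT), with overlapping libraries and a log2 difference of 0.03 (SE 0.04).

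Cox4i2, the form of the largest nuclear subunit known from lung and vessel-associated cells, was the lowest member and overlapped between groups. It read 1.199, 1.29, 0.954 and 0.833 FPKM in the KO libraries, against 1.02, 1.33, 0.968 and 1.28 FPKM in the WT libraries, from about 18 to 31 implied fragments each. The log2 difference was -0.06 (SE 0.11) and turned positive in 3 alternatives: quantile normalization, the first technical replicates alone and, at 0.06, without KO2. Markers of mural cells, the pericytes and smooth muscle cells of vessels, summed to 48.1 and 52.0 FPKM in KO1 and KO2 and to 53.6 and 60.3 FPKM in WT1 and WT2. Of these 10 genes, 4 had both KO animals below both WT animals (30.7% of all genes tested) and 0 had both above. The largest, Vtn, averaged 19.0 FPKM in KO animals and 23.4 FPKM in WT animals. Rgs5 overlapped, at 16.4 and 16.3 FPKM. The part of mural cells in the Cox4i2 level was not tested.

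Within a group the order of levels separated the isoforms by role, since every ubiquitous member stood at 153 FPKM or more and every tissue-restricted member at 19.3 FPKM or less in every library. Among the tissue-restricted isoforms the order in KO animals was Cox6a2, Cox6b2, Cox7a1, Cox8b and Cox4i2, and the order in WT animals was Cox8b, Cox6b2, Cox6a2, Cox7a1 and Cox4i2. In the WT animals Cox6a2 and Cox7a1 differed by no more than the SD of Cox6a2, and their libraries overlapped. In the KO animals Cox8b and Cox4i2 were next to each other, at 1.69 and 1.07 FPKM, and their libraries overlapped as well. Ubiquitous members kept 1 order in both groups, Cox8a first, then Cox6a1, Cox6b1 and Cox7a2. Summed over their members, tissue-restricted isoforms gave 14.1 and 14.7 FPKM in KO1 and KO2 and 31.8 and 37.3 FPKM in WT1 and WT2, while the 4 ubiquitous isoforms gave 1581 and 1564 FPKM in KO1 and KO2 and 1503 and 1514 FPKM in WT1 and WT2.

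Expressed as a share of its pair, Cox8b made up 0.218% and 0.324% of Cox8 FPKM in KO1 and KO2, against 2.37% and 2.85% in WT1 and WT2. Cox8a thus exceeded Cox8b 458-fold and 308-fold in the KO animals and 41.3-fold and 34.1-fold in the WT animals. The share of Cox6b2 was 0.974% and 1.11% in KO1 and KO2, against 2.72% and 3.03% in WT1 and WT2. The share of Cox7a1 was 1.24% and 1.53% in KO1 and KO2, against 2.40% and 2.55% in WT1 and WT2. Only for Cox6a2 among the 4 pairs was the share higher in the KO animals, at 1.32% and 1.19%, against 0.907% and 1.13% in the WT animals. In the WT animals the shares of Cox8b, Cox6b2 and Cox7a1 were close to each other, and in the KO animals Cox8b had the smallest share of the 4.

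The log2 ratio of the tissue-restricted over the ubiquitous isoform, with 0.1 FPKM added to each, depends little on a common scaling of a library. For Cox8b over Cox8a it averaged -8.47 ± 0.38 in KO animals and -5.22 ± 0.19 in WT animals (SD, n = 2 each), a difference of -3.25. For Cox6b2 over Cox6b1 it averaged -6.53 ± 0.13 in KO animals and -5.07 ± 0.11 in WT animals, a difference of -1.47. The difference was smaller for Cox7a1 over Cox7a2, at -0.84, and positive for Cox6a2 over Cox6a1, at 0.30. With 2 animals in each group an exact permutation test cannot go below p = 0.333, and none was run on these ratios.

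**Figure D2:**
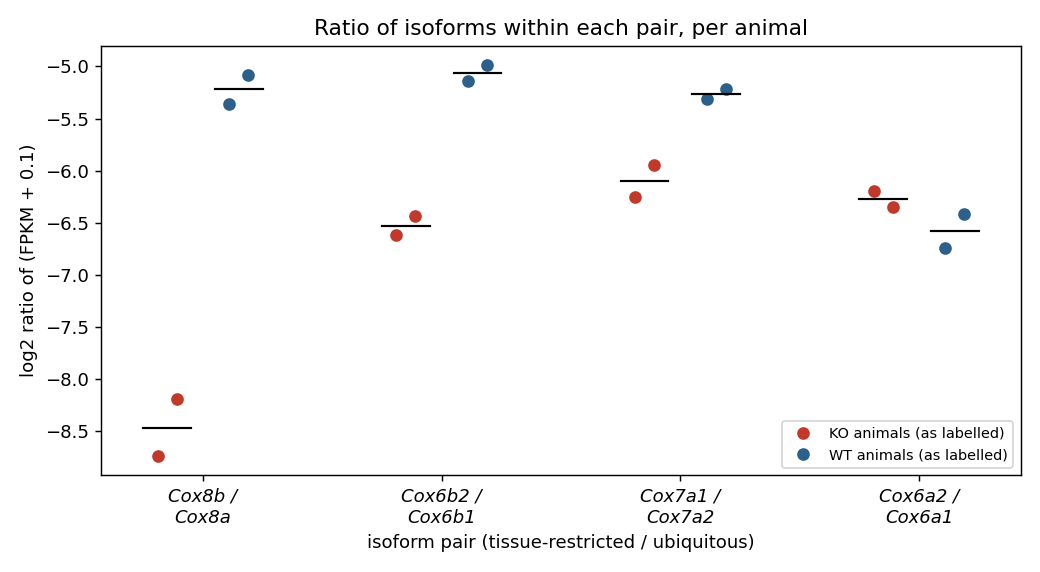
Log2 ratio of the tissue-restricted over the ubiquitous isoform, 0.1 FPKM added to each, for 4 pairs, with a point for each animal and a black line at the group mean. The KO animals lie below the WT animals for Cox8b, Cox6b2 and Cox7a1 and above them for Cox6a2.

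As a set the 9 members did not move together: their median log2 difference was 0.03, beside -0.02 over all genes tested. Both KO animals were below both WT animals for 3 members (30.7% of all genes tested) and above both for 5 members (18.4% of all genes tested), and 1 overlapped. The 4 ubiquitous members were among the 5, with log2 differences of 0.03 to 0.09. Each one's direction held under median-of-ratios scaling and quantile normalization, but sizes this small depended on the scaling. Cox8a, at 0.07 in the fit described, was at 0.11 with the first scaling and 0.01 with the second. Cox6a1, at 0.03, was at 0.075 and 0.05. The 5 tissue-restricted members had a median log2 difference of -0.59. At least 1 log2 unit lower in the KO animals were 2 members, Cox8b and Cox6b2 (0.726% of all genes tested). These shares are printed beside counts that the choice of members used, and nothing is read from them.

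The rest of the cytochrome c oxidase system was examined in lists chosen by role. Over 54 listed genes in all, 50 were tested, 0 passed the threshold in limma in either direction, 4 had an unadjusted p under 0.05, beside 15.5% of all genes tested, and the smallest adjusted p was 0.235. Their median log2 difference was -0.01, and the range of -0.23 to 0.17 was narrow beside the differences of Cox8b and Cox6b2.

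Nuclear subunits outside the pairs were 7 tested of 9 listed, with log2 differences of -0.07 to 0.06. The members with the largest differences were Cox7b, at 133 FPKM in each KO animal and 128 and 152 FPKM in the WT animals, Cox5a, at 180.3 and 164 FPKM in KO1 and KO2 and 167 and 163 FPKM in WT1 and WT2, and Cox6c, at 292 and 281 FPKM in KO1 and KO2 and 272 and 282 FPKM in WT1 and WT2. Their groups overlapped. The tissue-restricted paralogues on this list were too low to test: Cox7b2 was at 0.268 to 0.434 FPKM in KO animals and 0.303 to 0.305 FPKM in WT animals, and Cox8c, the testis form of Cox8, was listed at 0 in 7 of the 8 libraries. The testis isoform Cox6b2 therefore stood above Cox8c and Cox7b2 in both groups.

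The catalytic core genes of mitochondrial DNA, mt-Co1, mt-Co2 and mt-Co3, had log2 differences of -0.04, -0.04 and 0.07. The mt-Co1 value of KO1 rests on its second library, since the first has no usable estimate. mt-Co3 was at 5734 and 5519 FPKM in KO1 and KO2, against 5349 and 5385 FPKM in WT1 and WT2. Cycs, the somatic cytochrome c gene, was at 51.6 and 49.9 FPKM in KO1 and KO2, against 48.2 and 48.6 FPKM in WT1 and WT2.

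Assembly factors, which insert copper and haem and join the subunits, were 23 tested of 24 listed, 15 with a lower and 8 with a higher mean in the KO animals, where 58% of all genes tested had a lower mean. The largest differences were those of Cox20, a chaperone of the mitochondrially encoded subunit 2, at 21.4 and 21.0 FPKM in KO1 and KO2 and 23.4 and 26.7 FPKM in WT1 and WT2 (log2 difference -0.23, limma adjusted p = 0.249), of Coa3, at -0.15, and of Cox18, at -0.15. Surf1, whose loss causes Leigh syndrome in humans, was at 34.3 and 33.3 FPKM in KO1 and KO2 and 37.2 and 35.5 FPKM in WT1 and WT2 (adjusted p = 0.357). Regulators of these genes and of mitochondrial biogenesis were 17 tested of 17 listed. Tfb2m, a mitochondrial transcription factor, was at 10.1 FPKM in each KO animal and 8.84 and 8.89 FPKM in the WT animals (log2 difference 0.17, adjusted p = 0.235). The coactivator family member Pprc1 had a log2 difference of -0.13, and the hypoxia factor gene Epas1 of -0.10. Ppargc1a, the main coactivator of mitochondrial biogenesis, had 8.45 and 8.93 FPKM in KO1 and KO2 and 8.62 and 9.31 FPKM in WT1 and WT2.

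**Figure D3:**
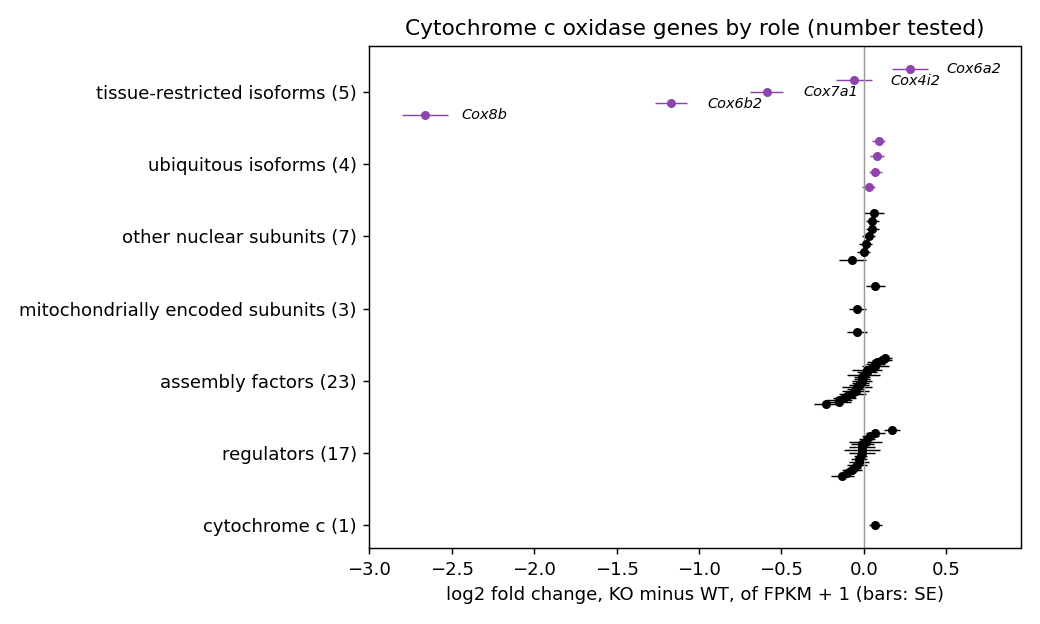
Log2 difference of FPKM + 1, KO minus WT, with its limma SE, for the measured isoforms and for the tested genes of the 5 cytochrome c oxidase and cytochrome c lists, with the number tested in brackets; marker lists are not drawn. Cox8b, Cox6b2 and Cox7a1 stand to the left of every other gene drawn, and the ubiquitous isoforms lie between 0.03 and 0.09.

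The genes next to Cox8b were compared to see whether its region as a whole was lower. Within 250000 bases on either side, 12 genes were tested, with log2 differences of -0.61 to 0.08 and a median of -0.03. Of these 0 passed in limma, 3 had an unadjusted p under 0.05 (15.5% of all genes tested had one), and the smallest adjusted p was 0.102. The nearest of the 12 was Psmd13, a proteasome subunit gene, at 39.6 FPKM in KO animals and 38.8 FPKM in WT animals, followed by Gm15542, at 20.9 FPKM in KO animals and 19.65 FPKM in WT animals. Sirt3, a mitochondrial deacetylase gene further away, was at 31.1 FPKM in KO animals and 30.2 FPKM in WT animals. The lowest was the interferon-induced gene Ifitm2, at 9.85 FPKM in KO animals and 15.6 FPKM in WT animals. Of the 12, 3 had both KO animals below both WT animals (30.7% of all genes tested) and 1, Gm15542, had both above (18.4%). The 3 were Ifitm2, Ifitm1 and Ifitm3, with log2 differences of -0.61, -0.6 and -0.41. They lie on the same side of Cox8b, 54391 to 109140 bases away.

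Genes with the pattern most like that of Cox8b over the 8 libraries, among 11349 genes with a mean log2(FPKM + 1) of at least 2, were the beta-globin gene Hbb-bs (Pearson r = 0.995), the dopamine-regulated phosphatase inhibitor gene Ppp1r1b (0.995), the cytokine gene Il33 (0.994), the calcium-binding protein gene Capsl (0.993) and the growth factor gene Bmp6 (0.993). Hbb-bs was at 44.5 and 49.5 FPKM in KO1 and KO2, against 88.4 and 97.9 FPKM in WT1 and WT2, and Bmp6 at 1.86 and 1.93 FPKM in KO1 and KO2, against 5.29 and 6.27 FPKM in WT1 and WT2. Cox6b2 itself had r = 0.98 with Cox8b, and Cox7a1 0.85. Its own nearest were Cpt2, an enzyme of fatty acid import into mitochondria (r = 0.993), the peroxisomal hydrolase gene Nudt7 (0.992) and Smim1 (0.989). Cpt2 was at 2.20 and 2.53 FPKM in KO1 and KO2, against 3.87 and 4.30 FPKM in WT1 and WT2. For Cox7a1 they were Btd (0.976), Psmc6 (0.972) and Rad9a (0.968), for Cox6a2 they were Oxr1 (0.986), Zmat4 (0.979) and Chrna4 (0.976), and for Cox4i2 they were Fam151b (0.974), Rps16 (0.950) and Dusp28 (0.949). These 8 points are 4 animals with 2 libraries each, so a gene that separates the groups scores high, and the coefficients are a description.

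The KO animals, low in Cox8b, Cox6b2 and Cox7a1, also had lower summed levels of several marker lists. These were choroid plexus, blood, ependyma, mural cell, thalamus and striatum and, near 0, germ cell. Choroid plexus is the epithelium in the ventricles that makes cerebrospinal fluid, and all 15 of its listed genes had both KO animals below both WT animals (30.7% of all genes tested), with sums of 293 and 1252 FPKM in KO1 and KO2 and 4288 and 7563 FPKM in WT1 and WT2. Ttr, its transthyretin gene, was at 180.0 and 934 FPKM in KO1 and KO2, against 3366 and 6325 FPKM in WT1 and WT2. It made up most of each sum, so percentages of the sum largely describe Ttr. Over the 15 genes, the KO mean was 0.115 (Ttr) to 0.212 (Enpp2) of the WT mean. Of the 15, 0 passed the threshold in limma over all genes, all 15 had an unadjusted p under 0.05 (15.5% of all genes tested), and the smallest adjusted p was 0.0979. Relative to the mean of the WT animals, the choroid plexus sum was 4.94% in KO1 and 21.1% in KO2, whereas Cox8b was 8.66% in KO1 and 12.5% in KO2, Cox6b2 34.8% and 40.9%, and Cox7a1 51.8% and 64.7%. The animals were in the same order for all 4 of these measures, KO1 lowest, then KO2, WT1 and WT2. The sums of blood, mural cell, germ cell and assembly factor genes had that order too, although the germ cell sum was near 0. The ependyma and meningeal fibroblast sums did not. How many of all genes share this order was not counted, and nothing is read from it.

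The 5 blood genes summed to 149 and 158 FPKM in KO1 and KO2 and to 287 and 317 FPKM in WT1 and WT2. Of them 2, the near-identical alpha-globin copies Hba-a1 and Hba-a2, fell in limma (adjusted p = 0.0372 and 0.0373), beside 0.0540% of all genes tested. Genes of ependyma, the ciliated lining of the ventricles, summed to 25.7 and 43.1 FPKM in KO1 and KO2 and to 61.3 and 50.5 FPKM in WT1 and WT2. Meningeal fibroblast genes overlapped between groups, at 18.5 and 37.2 FPKM in KO1 and KO2 and 31.3 and 48.9 FPKM in WT1 and WT2. The part of any of these cells in the levels of Cox8b, Cox6b2 and Cox7a1 was not tested.

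Defining genes of the tissues for which the isoforms are named were in part at or near 0 and in part present. Of the striated muscle genes, Acta1 was not analysed here, and the creatine kinase gene Ckm was at 0.154 to 0.195 FPKM in KO animals and 0.158 to 0.200 FPKM in WT animals, while Myh7, a myosin heavy chain gene of heart and slow muscle, was at 6.13 and 7.37 FPKM in KO1 and KO2 and 6.97 and 8.47 FPKM in WT1 and WT2. The brown fat gene Ucp1 was at 0.0235 FPKM or less in KO animals and 0.0244 FPKM or less in WT animals. Elovl3, Plin1 and Adipoq were low as well, at 0.238 FPKM or less in every animal. Only 2 of the 6 brown fat genes listed were high enough to test. Cidea was at 5.17 and 5.41 FPKM in KO1 and KO2 and 4.69 and 5.16 FPKM in WT1 and WT2. The deiodinase gene Dio2 was at 11.2 and 9.71 FPKM in KO1 and KO2 and 9.305 and 11.2 FPKM in WT1 and WT2. The germ cell genes Prm2, Tnp1 and Ldhc were listed at 0 in all 8 libraries, and the 6 germ cell genes summed to 0.0107 FPKM in KO1, 0.0608 FPKM in KO2, 0.0907 FPKM in WT1 and 0.102 FPKM in WT2. Excitatory neuron genes, by contrast, were abundant, summing to 1373 and 1356 FPKM in KO1 and KO2 and 1253 and 1165 FPKM in WT1 and WT2, and astrocyte genes to 244 and 243 FPKM in KO1 and KO2 and 247 and 237 FPKM in WT1 and WT2. Genes of the neighbouring thalamus and striatum summed to 53.7 and 53.8 FPKM in KO1 and KO2 and 85.9 and 79.8 FPKM in WT1 and WT2. Most of that gap was Ppp1r1b, which fell to 28.0 and 28.3 FPKM in KO1 and KO2, against 49.5 and 52.3 FPKM in WT1 and WT2 (limma adjusted p = 0.0372). Prkcd, a thalamic marker, was at 12.8 and 14.2 FPKM in KO1 and KO2 and 23.0 and 15.02 FPKM in WT1 and WT2, and the dopamine receptor gene Drd2 at 1.37 and 1.496 FPKM in KO1 and KO2 and 2.26 and 1.93 FPKM in WT1 and WT2. Of the 8 genes on that list, 4 had both KO animals below both WT animals (30.7% of all genes tested), 1 had both above (18.4%), and the other 3 overlapped.

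**Figure D4:**
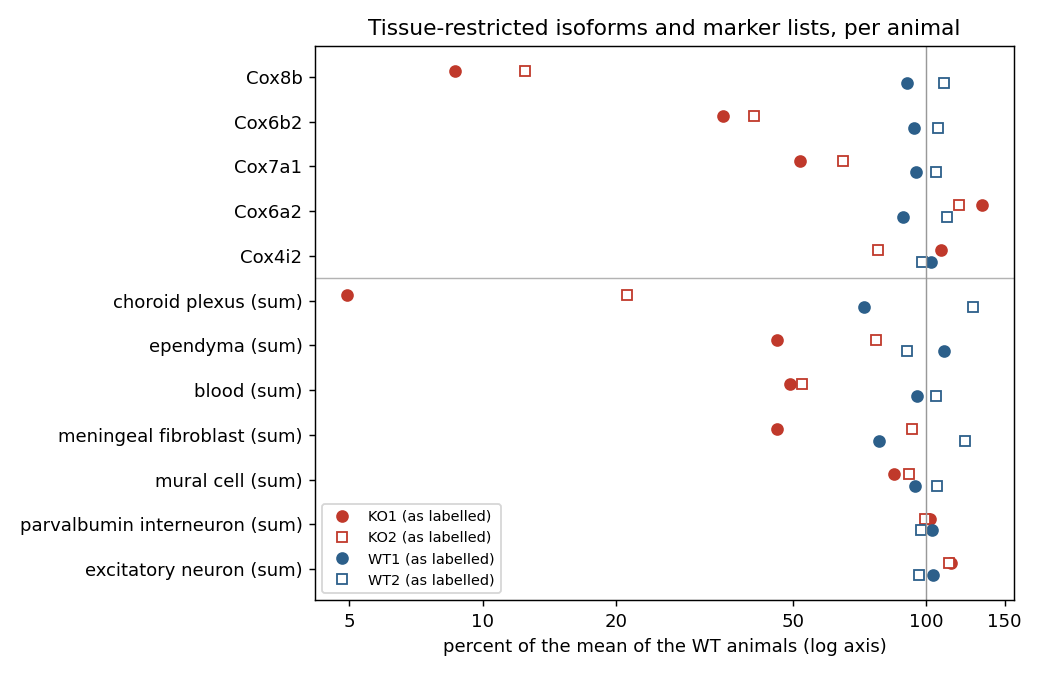
Level in each animal of the tissue-restricted isoforms (upper rows) and of the summed marker lists (lower rows), as a percentage of the mean of the WT animals on a log axis. Cox8b is at 8.66% and 12.5% in the KO animals, the choroid plexus sum, which is mostly Ttr, at 4.94% and 21.1% and the blood sum at 49.2% and 52.3%.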

How the data were processed

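Hippocampal RNA-seq values of 8 libraries (2 animals per group, 2 technical replicates each) were read from 1 gene table per library. Each gene has a status, an FPKM and its confidence limits, as the authors deposited them, per the file headers. Per the submitters' processing notes, mm10, Bowtie (version 1) and HISAT were used, in roles they do not give. Which program made the FPKM is not given in the sources used here, nor is any scaling between libraries or strand setting. Values with a status other than OK (0 to 3 per library) were treated as missing, and 53 rows that repeat a gene identifier were summed.

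Technical replicates were averaged per animal. A gene entered the test if 2 animals or more reached 0.5 FPKM (16667 genes). The test was limma 3.58.1 in R 4.3.3 with a variance trend, on log2(FPKM + 1), KO minus WT, with Benjamini-Hochberg adjustment at 0.05; the pseudocount understates differences of low genes. The procedure was tested on simulated data. The members and lists were chosen with earlier results of these data known. Fragments behind a value were inferred from the width of the confidence limits, taken as 2 SD on each side; these depths are rough and cover counting error only. Named genes were the 10 members, the 3 largest differences of each list (all for lists of 3 or fewer tested), the closest correlates of each tissue-restricted member, and marker genes; Surf1, Ppargc1a, Itgad, Gm50432 and the neighbours of Cox8b were added after their values were seen. Similar transcripts were sought with BLAST 2.17.0 in GENCODE M21, and figures were drawn with matplotlib 3.10.9. Alternatives were other scalings, filters and pseudocounts, single technical replicates, the animal number as a block and each animal left out; leaving out the first library of KO1 was added after seeing the data.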

Additional observations from a re-analysis of the deposited data

How the results depend on the processing

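The number of genes past the threshold in limma, 9 in the fit described, was 14 with a pseudocount of 0.1, 0 of 34097 with no filter on low values (3741 at an unadjusted p under 0.05), 19 and 35 with the first or second technical replicates alone, 20 without the first library of KO1, and 0 to 224 with 1 animal left out, where the remaining animal is taken to have the spread of the intact group (0 without WT1, 1 without WT2, 11 without KO1, 224 without KO2). With the animal number as a replicate block it was 184; the numbers are not shown to pair the animals, as deviations of same-numbered animals correlated at 0.107 with only 2 pairs. Cox8b was past the threshold in 9 of the 13 alternatives, and not with no filter, the first technical replicates alone, without WT1 or without WT2. Among the fits with 2 animals in each group, Cox6b2 was also past it with the replicate block, the second technical replicates alone and without the first library of KO1. In these, 184, 35 and 20 of all genes tested were past it. As the members were chosen with these data known, nothing is read from the calls of Cox8b and Cox6b2. The log2 difference of Cox8b was -3.18 with a pseudocount of 0.1, and -2.83 to -2.50 with 1 animal left out. With 1 FPKM added to each isoform, the log2 ratio differences were -2.73 for Cox8b over Cox8a, -1.26 for Cox6b2 over Cox6b1 and -0.67 for Cox7a1 over Cox7a2; for Cox6b2 over Cox6b1 it was -1.76 and -1.18 with the first or second technical replicates alone. Of the other members' differences, 11 of 104 values moved by more than the spread between animals, and Cox4i2 alone changed sign. The count of other cytochrome c oxidase genes called was 0 in all 13. The causes were not tested. Depth limits Cox8b in KO libraries, Cox7a1 and Cox4i2, which rest on few fragments.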
